A study of Mus musculus with 8 samples.

Results

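The genes described here are 9 genes of the mechanosensitive YAP system, namely Ccn1, Ccn2, Ankrd1, Thbs1, Amotl2, Ajuba, Lats2, Yap1 and Wwtr1. They were picked by symbol from the 25239 gene symbols of a count table, and all 9 had enough counts to enter the test across 12837 genes. The names were put together with results of this same genotype comparison already known, so their differences between the groups are given as a description, with no test, and support nothing. The values of the other genes of the pathway were read from the test across all genes. Their lists, too, were chosen with earlier results of these data known, so counts over a list are no independent evidence.

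Polyadenylated RNA was sequenced from primary cells that the labels call osteoblasts, taken from the calvaria, the bony skull cap, of mice. Of the 8 libraries, 4 came from controls (WT, littermates) and 4 from animals labelled KO(OSX-SphK2), a knockout of sphingosine kinase 2, and the titles number the libraries 1 to 4 in each group. Strain, age, sex and the number of animals behind a library are not given in the sources used here, so p-values cover the scatter of these 8 libraries alone, and part of it may be technical. OSX is the osteoblast-lineage transcription factor osterix, and how it was used to delete the gene is not given further in the labels. Because the targeted gene did not set the groups apart, the second group is called knockout-labelled throughout. Sphk2 ranged from 64.2 to 134 CPM (counts scaled to a common library size) among the controls and from 69.7 to 131 CPM among the knockout-labelled libraries, and a count over the whole gene need not show a deletion of part of it or in part of the cells.

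The libraries held 14347495 to 19065421 counts. Macrophage transcripts were abundant in all 8. Of the 12 osteoblast markers, the matrix genes Col1a1 (907 to 7205 CPM), Col1a2 (1153 to 6334) and Sparc (595 to 2664), Spp1 (528 to 1860) and the lineage factor Runx2 (18.4 to 49.9) were present in every library. The late markers Bglap and Bglap2, which encode osteocalcin, were at or under 0.98 CPM in all but knockout-labelled 1, at 42.3 and 40.7 CPM there. Dmp1 and Phex were at or under 0.778 CPM in all but knockout-labelled 1, at 13.7 and 9.80 CPM there. Sp7, the osterix gene, ran from 3.29 CPM in control 4 to 46.2 CPM in control 2. Alpl ran from 1.46 to 83.6 CPM and Ibsp from 0.656 to 1082 CPM, both highest in knockout-labelled 1. Control 4 and knockout-labelled 4 stood apart from the other 6 libraries along a component with 73.7% of the variance, with the osteoclast genes Acp5 and Mmp9 at 1699 to 5067 CPM against at most 52.6 CPM elsewhere. The values of the 9 genes are therefore given with and without the libraries numbered 4. In whole-culture RNA, fewer cells of a type and less of a transcript per cell cannot be told apart.

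Yap1 and Wwtr1 (TAZ) encode transcriptional coactivators that lack a DNA-binding domain and act through the TEAD factors. In the Hippo pathway the MST kinases activate the LATS kinases, which phosphorylate YAP and TAZ and keep them out of the nucleus, whereas cell spreading, a stiff substrate and actin tension favour their entry. Ccn1, Ccn2 and Ankrd1 are classical readouts of YAP and TEAD activity, and Lats2 and Amotl2 are targets that in turn restrain YAP. In bone, the pathway is known for its part in the response of stromal and osteoblast-lineage cells to load.

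Promoter sequence is shown because YAP and TAZ reach DNA through the TEAD factors. RefSeq promoter windows of build GRCm38.p6, each with 250 bases before and 50 after a gene's start, were matched for 7 of the 9 genes (Ccn1, Ankrd1, Amotl2, Ajuba, Lats2, Yap1 and Wwtr1), with 9 windows in all. The core TEAD motif GGAATG, searched on both strands, was in 8 of the 9 windows and in 7 of 7 genes. The same letters were in 14.7% of all 32851 windows of that length, in 16.6% of all genes with a window and in 14.2% of the tested genes with one. The 250 bases before the start are printed 5′ to 3′ for 4 target genes and for Yap1, with the TEAD letters on either strand in capitals.
Ccn1, chr3:145649986-145650235, minus strand: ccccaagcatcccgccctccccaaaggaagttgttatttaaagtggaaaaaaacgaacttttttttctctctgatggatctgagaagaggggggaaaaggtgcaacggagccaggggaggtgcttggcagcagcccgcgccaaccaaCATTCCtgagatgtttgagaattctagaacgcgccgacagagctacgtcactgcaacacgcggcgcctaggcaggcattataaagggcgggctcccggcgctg
Ankrd1, chr19:36119845-36120094, minus strand: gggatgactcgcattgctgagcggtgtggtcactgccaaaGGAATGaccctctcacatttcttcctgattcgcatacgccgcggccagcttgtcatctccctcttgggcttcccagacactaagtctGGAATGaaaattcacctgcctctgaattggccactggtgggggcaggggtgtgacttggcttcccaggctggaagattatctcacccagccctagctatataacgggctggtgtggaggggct
Amotl2, chr9:102717554-102717803, plus strand: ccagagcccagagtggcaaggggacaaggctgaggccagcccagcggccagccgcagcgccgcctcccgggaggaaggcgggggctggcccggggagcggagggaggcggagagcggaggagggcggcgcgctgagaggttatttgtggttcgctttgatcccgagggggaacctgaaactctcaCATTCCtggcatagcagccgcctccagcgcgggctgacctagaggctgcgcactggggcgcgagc
Ajuba, chr14:54577662-54577911, minus strand: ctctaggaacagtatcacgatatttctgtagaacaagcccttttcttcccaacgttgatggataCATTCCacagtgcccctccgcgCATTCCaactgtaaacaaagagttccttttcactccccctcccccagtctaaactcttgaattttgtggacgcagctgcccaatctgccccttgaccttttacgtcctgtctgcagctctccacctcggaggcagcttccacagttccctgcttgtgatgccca
Yap1, chr9:8004597-8004846, minus strand: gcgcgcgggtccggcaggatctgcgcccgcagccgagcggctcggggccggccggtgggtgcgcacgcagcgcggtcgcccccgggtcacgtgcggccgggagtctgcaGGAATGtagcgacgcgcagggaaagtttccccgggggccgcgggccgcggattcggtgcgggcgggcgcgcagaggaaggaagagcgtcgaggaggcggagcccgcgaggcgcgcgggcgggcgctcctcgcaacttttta

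In these windows Ankrd1 and Ajuba each held 2 copies of the TEAD letters, Ccn1, Amotl2 and Yap1 held 1, and within these 5 stretches the match nearest to the start was that of Amotl2, 65 bases before it. The Lats2 match lay after the start, at base 5, and the other Lats2 window held none. No window of the 7 genes held TGANTCA, the AP-1 motif, which 7.81% of all windows held, or the CArG box bound by SRF, which 1.63% held. Among 64 other genes of the pathway with a window, 20 (31.2%) held the TEAD letters, and the CArG box was in 6 of 16 genes of the list of SRF, MRTF and their targets. These are matches of letters, not measured binding sites, and several of the genes are known as TEAD targets, so the count is no independent evidence.

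The 9 genes spanned a wide range of levels. Scaled by length to RPKM (the CPM over the kilobases of exon in GENCODE M21), Thbs1 ran from 733 to 2174, Ccn2 from 58.5 to 563 and Ccn1 from 46.5 to 323, and this order held in 8 of 8 libraries. Ankrd1 ran from 3.84 to 75.3 RPKM, Amotl2 from 4.87 to 50.7 and Lats2 from 5.34 to 23.7. Ajuba (1.90 to 12.6 RPKM), Wwtr1 (1.43 to 10.5) and Yap1 (1.44 to 7.98) were the lowest, and these 3 changed places between libraries. By counts, Thbs1 was between the 3rd and the 12th most abundant gene in every library. At the other end, Ankrd1 fell from rank 830 in control 2 to ranks 8600 and 8827 in the libraries numbered 4.

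Between the groups, each target gene was lower in the knockout-labelled library than in the control of the same number in pairs 1 to 3, and in pair 4 all but Ankrd1 were higher. The 7 targets stood at 0.416 to 0.769 of their control in pairs 1 to 3 and at 0.895 to 2.14 in pair 4. The coactivator genes Yap1 and Wwtr1 moved less, with 0.708 to 0.958 in pairs 1 to 3 and 1.15 to 1.38 in pair 4. All 9 were lower in each of pairs 1 to 3, as were 28% of all tested genes, and 8 of 9 were lower there and higher in pair 4, against 14.7% of all tested genes.

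**Figure D1:**
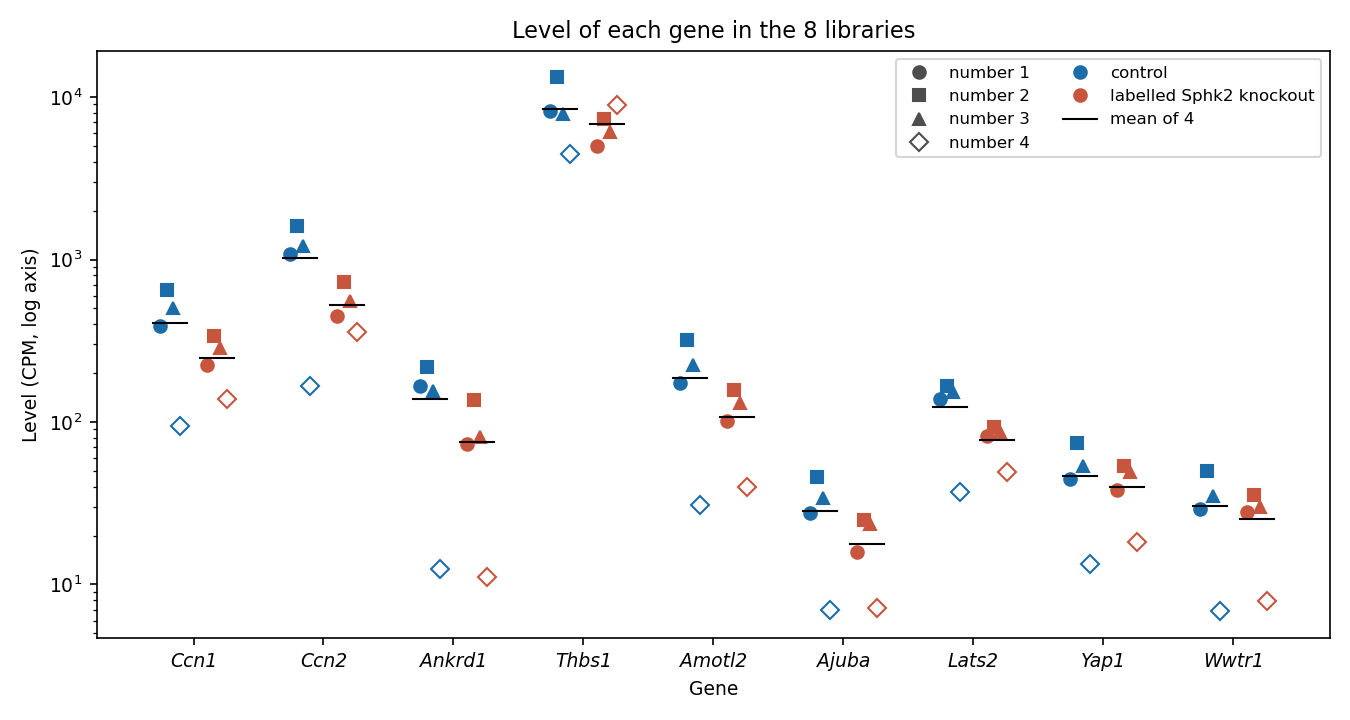
Level of each gene in CPM (log axis) in the 4 control and 4 knockout-labelled libraries, with the library number as the marker shape and the mean of 4 as a bar. The open diamonds, number 4, are the lowest value of each group except for Thbs1 in the knockout-labelled group, where number 4 at 8986 CPM is the highest.

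Among the secreted targets, Ccn2 (connective tissue growth factor, a matricellular protein; chromosome 10, 24595442 to 24598683 of GRCm38) differed most. It stood at 1079, 1610, 1219 and 167 CPM across controls 1 to 4, against 449, 725, 557 and 359 CPM across knockout-labelled 1 to 4. All 3 controls numbered 1 to 3 lay above every knockout-labelled library, and control 4 lay below them all. The means were 1019 ± 610 CPM (SD, n = 4) and 522 ± 157 CPM (SD, n = 4), and without number 4 they were 1303 ± 275 and 577 ± 139 CPM (SD, n = 3). On the log2 scale the difference was −0.96 (SE 0.59) over all 8 libraries and −1.17 (SE 0.22) over numbers 1 to 3.

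Ccn1 (CYR61, the related matricellular protein that binds integrins; chromosome 3, 145646976 to 145649981) had the same arrangement. It reached 388, 651, 504 and 93.9 CPM across controls 1 to 4, against 223, 339.5, 287 and 139 CPM across knockout-labelled 1 to 4. The groups did not overlap in numbers 1 to 3 and overlapped through control 4. The log2 difference was −0.73 (SE 0.54), or −0.86 (SE 0.24) over numbers 1 to 3. In pair 4 the ratio of the knockout-labelled library to its control was 1.48 for Ccn1 and 2.14 for Ccn2.

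Thbs1 encodes thrombospondin 1, a secreted glycoprotein that inhibits angiogenesis and can activate latent TGF-beta, and lies on chromosome 2 from 118111876 to 118127133. It stood at 8220, 13200, 7874 and 4452 CPM across controls 1 to 4, against 4981, 7290, 6053 and 8986 CPM across knockout-labelled 1 to 4. It took up 0.437% to 1.31% of the counts of a library. Number 4 held the lowest control and the highest knockout-labelled value, and Thbs1 was the only one of the 9 genes that was higher in a library numbered 4 than in the rest of its group, at 1.47 times the mean of knockout-labelled 1 to 3. The log2 difference was −0.31 (SE 0.34), or −0.68 (SE 0.24) over numbers 1 to 3.

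Of the targets that act inside the cell, Ankrd1 (a nuclear and sarcomeric ankyrin repeat protein; chromosome 19, 36111961 to 36120099) stood at 167, 217, 155 and 12.4 CPM in controls 1 to 4. In knockout-labelled 1 to 4 it stood at 73.3, 136, 80.7 and 11.1 CPM. It was the one gene that was lower in 4 of 4 pairs, with a ratio of 0.895 in pair 4 from 152 counts against 177 in its control. Among these 9 genes it also had the lowest number 4 libraries relative to the rest of their group, at 0.0689 of the mean of controls 1 to 3 and 0.115 of the mean of knockout-labelled 1 to 3. The log2 difference was −0.87 (SE 0.88), or −0.89 (SE 0.28) over numbers 1 to 3. Ankrd1 is also a gene of striated muscle, and of the 6 markers in that list Myod1 and Myog had 0 counts in all 8 libraries, Ckm and Myh3 at most 3, and Ttn 3 to 37. Acta1, the skeletal muscle actin gene, was detected in every library, at 5.34, 16.1, 7.28 and 0.979 CPM across controls 1 to 4, against 8.81, 20.6, 7.11 and 1.60 CPM across knockout-labelled 1 to 4. Like Ankrd1 it was lowest in number 4, and unlike Ankrd1 it was higher in the knockout-labelled library in pairs 1, 2 and 4; its part in the result was not tested.

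Lats2 encodes the kinase that phosphorylates YAP and TAZ and is itself induced by them, and lies on chromosome 14 from 57689662 to 57758388. It stood at 139, 166, 153 and 37.2 CPM across controls 1 to 4, against 81.7, 92.6, 86.2 and 49.3 CPM across knockout-labelled 1 to 4. In numbers 1 to 3 its replicates lay close together, with means of 152 ± 13.4 CPM (SD, n = 3) and 86.8 ± 5.51 CPM (SD, n = 3). The log2 difference was −0.67 (SE 0.44), or −0.81 (SE 0.08) over numbers 1 to 3. GENCODE M21 places a further protein-coding gene model, Gm49361, over Lats2 on the same strand. Its symbol is not among those deposited, so the share of reads from each is uncertain.

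Amotl2 encodes an angiomotin that holds YAP at cell junctions, and Ajuba a LIM protein that restrains LATS kinases under tension. Amotl2 (chromosome 9, 102716672 to 102733418) stood at 173, 319, 226 and 30.6 CPM across controls 1 to 4, against 102, 156, 130 and 39.8 CPM across knockout-labelled 1 to 4. Ajuba (chromosome 14, 54567472 to 54577558) stood at 27.4, 45.8, 33.8 and 6.92 CPM across the controls, against 15.8, 24.8, 23.4 and 7.14 CPM across the knockout-labelled libraries. Both had no overlap in numbers 1 to 3, and in pair 4 the Ajuba values were near each other, from 99 and 98 counts. Their log2 fold changes were −0.80 (SE 0.66) and −0.68 (SE 0.58), and −0.88 (SE 0.27) and −0.73 (SE 0.24) over numbers 1 to 3.

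The coactivator genes overlapped between the groups with and without number 4. Yap1 (chromosome 9, 7931999 to 8004596) stood at 44.8, 73.9, 53.4 and 13.3 CPM across controls 1 to 4, against 38.0, 53.4, 49.1 and 18.3 CPM across knockout-labelled 1 to 4. Wwtr1 (chromosome 3, 57455649 to 57575910) stood at 29.3, 50.1, 35.1 and 6.85 CPM in the controls, and 28.0, 35.5, 30.0 and 7.87 CPM in the other group. Control 2 was the highest library for both. The log2 fold changes were −0.22 (SE 0.51) and −0.26 (SE 0.62), and −0.29 (SE 0.22) and −0.29 (SE 0.21) over numbers 1 to 3. Both means turned positive when either control 2 or knockout-labelled 4 was left out, to 0.099 and 0.017 for Yap1 and 0.098 and 0.041 for Wwtr1. RNA levels do not show the phosphorylation or the place of these proteins in the cell.

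**Figure D2:**
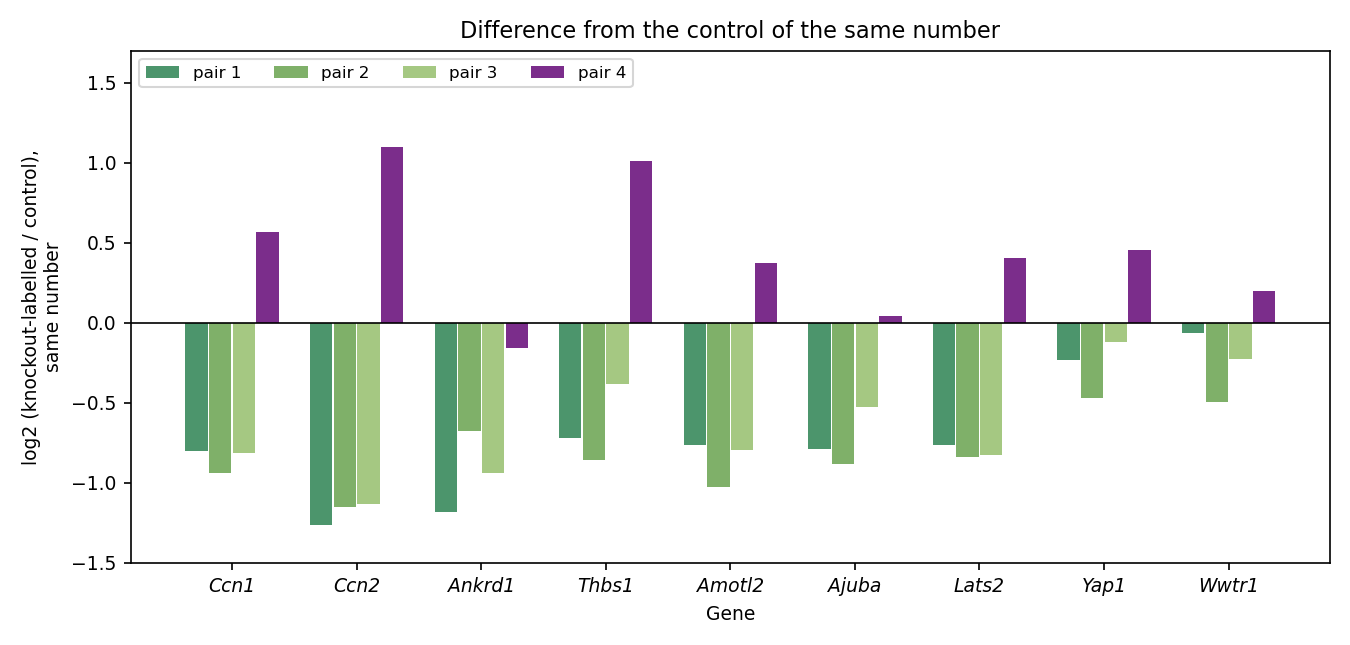
Log2 ratio of each knockout-labelled library to the control of the same number, for the 9 genes, with 1 bar for each of pairs 1 to 4. Pairs 1 to 3 lie below 0 for every gene, down to −1.26 for Ccn2, and pair 4 lies above 0 for all but Ankrd1, up to 1.10 for Ccn2.

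In numbers 1 to 3 the groups did not overlap, with the knockout-labelled libraries lower, for 7 of the 9 genes and for 16.5% of all tested genes. Over all 8 libraries the groups were apart for 0 of the 9, while 1.27% of all tested genes lay apart on the lower side and 2.32% on the higher side. These counts rest on the contrast with which the genes were chosen, and nothing is read from them.

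The 10 fibroblast and mesenchymal markers summed to 11572, 15637, 11929 and 3495 CPM across controls 1 to 4, against 8368, 9999, 8771 and 2558 CPM across knockout-labelled 1 to 4. The ratio of the sums was 0.723, 0.639, 0.735 and 0.732 in pairs 1 to 4, and Fn1, fibronectin, made up most of the sum. Of the 8 tested markers 5, 8, 6 and 7 were lower in pairs 1 to 4, and their median log2 ratios were −0.05, −0.71, −0.32 and −0.51. In pair 1 Postn (ratio 3.77), Col3a1 (3.07) and Pdgfra (1.81) were higher while Fn1 (0.608) was lower. The sum of the 8 genes without Thbs1 was 2047, 3132, 2378 and 368 CPM across the controls, against 1011, 1563, 1243 and 631 CPM across the knockout-labelled libraries. In pair 4 this sum was higher while the marker sum was lower. Ccn2 and Ccn1 made up most of it, so it does not stand for each gene. The pair 4 ratio was 2.14 for Ccn2 but 0.895 for Ankrd1 and 1.03 for Ajuba. The sum of 6 smooth muscle and pericyte markers, between 7.62 and 108 CPM (controls) and between 16.1 and 76.2 CPM (knockout-labelled), had ratios of 0.615, 0.702, 0.903 and 2.11. Of the 5 tested among them 2, 3, 3 and 1 were lower in pairs 1 to 4, with median log2 ratios of 0.20, −0.54, −0.02 and 1.44. The part of these markers in the result was not tested.

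The 14 macrophage markers summed to between 31072 and 40930 CPM (controls) and between 31325 and 51538 CPM (knockout-labelled), with ratios of 0.848, 1.01, 0.848 and 1.39 in pairs 1 to 4. Lyz2, with ratios of 0.773, 0.926, 0.769 and 1.67, made up most of the sum. Of the 14 markers 8, 5, 7 and 4 were lower in pairs 1 to 4, with median log2 ratios of −0.13, 0.09, −0.05 and 0.10. The 12 osteoblast markers summed to 6432 to 16881 and 4158 to 15700 CPM, with ratios of 2.04, 0.627, 1.05 and 0.646. Of the 9 osteoblast markers tested 1, 7, 5 and 8 were lower in pairs 1 to 4. The 8 osteoclast markers summed to 44.8 to 128.5 CPM among controls 1 to 3 and 52.6 to 74.1 CPM among knockout-labelled 1 to 3, while control 4 had 9890 CPM and knockout-labelled 4 had 6559 CPM. The 6 endothelial markers summed to 7.44 to 11.2 CPM in numbers 1 to 3, 27.3 CPM in control 4 and 40.7 CPM in knockout-labelled 4. Of these Tek had 0 counts throughout and Pecam1, which myeloid cells also express, had 3.14 to 29.2 CPM. The 6 neutrophil markers summed to at most 3.42 CPM. The part of these lists in the result was not tested.

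**Figure D3:**
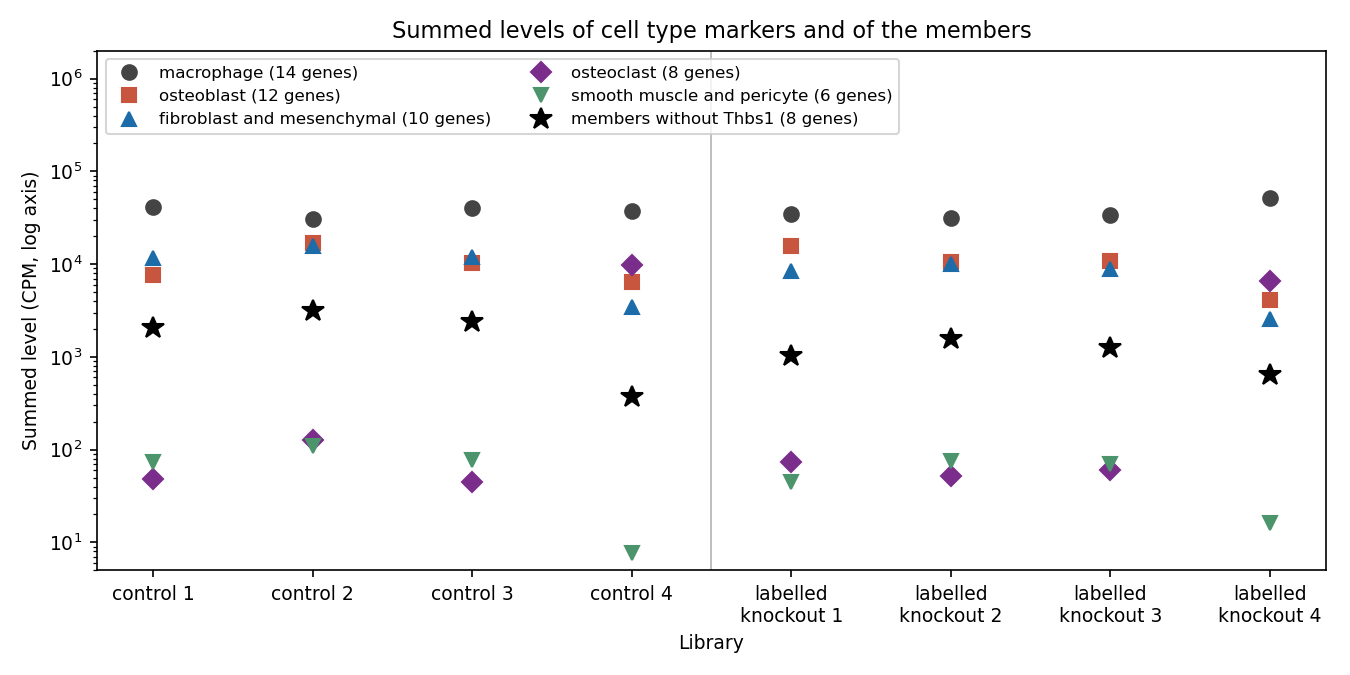
Summed level in CPM (log axis) of 5 cell type marker lists and of the 8 genes without Thbs1 (stars) in each library. Libraries numbered 4 hold the lowest stars, at 368 and 631 CPM, together with the highest osteoclast sums and the lowest mesenchymal sums.

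Other genes of the pathway were taken from 7 lists with 85 genes, of which 80 could be tested. In the edgeR quasi-likelihood test across all genes with Benjamini-Hochberg adjustment and a threshold of 0.05, 0 of 80 passed over all 8 libraries, where 0% of all genes did. None of the 80 had an unadjusted p under 0.05, as 631 of all 12837 tested genes did. DESeq2 called 0 of the 80 and 176 of the 12837. Their median log2 fold change was −0.21, with 58 of 80 negative. Over all tested genes the median was −0.02, with 6844 of 12837 negative. With the library number as a block the median of the 80 was −0.13. With that block 3 of 80 passed, all lower, where 2.49% of all genes were called and 1.18% were lower, and all 3 belong to mechanosensing and focal adhesion. They were Piezo1, a stretch-activated ion channel (log2 fold change −0.40, SE 0.06, edgeR adjusted p = 0.041), Src, the kinase of adhesion signalling (−0.51, SE 0.06, edgeR adjusted p = 0.036), and Bcar1, the p130Cas scaffold that unfolds under stretch (−0.41, SE 0.06, edgeR adjusted p = 0.041). Each was lower in 4 of 4 pairs, and none of the 3 passed once both libraries of number 1, of number 2 or of number 3 were dropped. The block rests on a pairing by number that no label states. Over numbers 1 to 3 without the block Piezo1 passed (edgeR adjusted p = 0.017), and Src (edgeR adjusted p = 0.106) and Bcar1 (edgeR adjusted p = 0.129) did not. Src, also abundant in osteoclasts, reached 218 CPM in control 4 and 144 CPM in knockout-labelled 4, against 24.3 to 46.7 CPM elsewhere.

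Piezo1 stood at 356, 400, 394 and 231.5 CPM across controls 1 to 4, against 245.5, 304, 302 and 190 CPM across knockout-labelled 1 to 4, with no overlap in numbers 1 to 3. Of the same list, Itgb1, the integrin beta 1 chain, stood at 1432, 1707, 1492 and 549 CPM across the controls, against 982, 1099, 997 and 619.5 CPM across the knockout-labelled libraries. It fell over numbers 1 to 3 (log2 fold change −0.59, SE 0.09, edgeR adjusted p = 0.0033) but not over all 8 libraries (−0.49, SE 0.35). Lmna, which encodes lamin A and C of the nuclear envelope, had −0.27 (SE 0.20) and did not pass over all 8 libraries or over numbers 1 to 3. Trpv4, a stretch- and osmosensitive channel, went the other way and rose over numbers 1 to 3 (0.31, SE 0.09, edgeR adjusted p = 0.047). Of the 13 genes of the list 11 had a negative value over all 8 libraries, with a median of −0.25.

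TEAD genes and nuclear cofactors had a median of −0.35, with 5 of 6 negative and 0 past the threshold. Tead1 was the most abundant TEAD gene by CPM, at 124, 199, 141 and 10.9 CPM across controls 1 to 4, against 74.2, 125, 102 and 17.6 CPM across knockout-labelled 1 to 4. Its ratios of 0.598, 0.627, 0.724 and 1.62 had the same signs as those of the targets, with a log2 fold change of −0.58 (SE 0.82). Tead3 (−0.70, SE 0.59) and the TEAD cofactor Vgll3 (−0.41, SE 0.72) were near it in size. Over numbers 1 to 3 without the block 0 of 6 passed, where 6.29% of all genes fell. Tead1 had −0.62 (SE 0.26, edgeR adjusted p = 0.195) there. With the block over numbers 1 to 3, 4 of 6 genes fell, where 11.9% of all genes did, among them Tead1 (−0.62, SE 0.06, edgeR adjusted p = 8.61e-05).

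Hippo kinases and their upstream regulators showed no common direction. Of 18 genes 7 were negative and 11 positive over all 8 libraries, the median was 0.04 and 0 passed. Frmd6, an upstream activator of the kinases, had −0.61 (SE 0.41), Taok3 0.21 (SE 0.15) and Stk4, which encodes the kinase MST1, 0.18 (SE 0.15). Over numbers 1 to 3 only Taok3, a kinase that activates MST, passed and rose (0.28, SE 0.06, edgeR adjusted p = 0.022), 1 of 18 where 7.78% of all genes rose. With the block over numbers 1 to 3, 3 of 18 rose and 3 fell, Frmd6 among the latter, where 24.2% of all genes were called in either direction. Lats1, the paralog of Lats2, lay between 82.7 and 104 CPM for controls 1 to 3 and between 84.2 and 87.5 CPM for knockout-labelled 1 to 3, so its groups overlapped where those of Lats2 did not.

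Other YAP and TEAD target genes had a median of −0.34, with 11 of 16 negative. None passed over all 8 libraries, where Dock5, a guanine nucleotide exchange factor, had −0.33 (SE 0.16), Gadd45a, a stress-inducible growth arrest gene, −0.35 (SE 0.19) and Fjx1, at or under 3.78 CPM, −1.09 (SE 0.61). Over numbers 1 to 3, 3 fell, where 6.29% of all genes did. They were Crim1, a transmembrane BMP antagonist (−1.10, SE 0.26, edgeR adjusted p = 0.048), Nt5e, the ectonucleotidase CD73 (−0.82, SE 0.16, edgeR adjusted p = 0.012), and Dock5 (−0.28, SE 0.06, edgeR adjusted p = 0.016). Crim1 had ratios of 0.370, 0.500 and 0.516 in pairs 1 to 3 and 1.59 in pair 4.

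The SRF and MRTF list holds the regulator genes Srf, Mrtfa and Mrtfb and their cytoskeletal targets. Of its genes 16 of 17 were negative over all 8 libraries with a median of −0.41 (−0.11 with the library number as a block), and 0 passed. Flna (filamin A, an actin crosslinker) had −0.46 (SE 0.36), the LIM protein gene Fhl2 −0.51 (SE 0.44) and Actn1 (alpha-actinin 1) −0.46 (SE 0.41). In pair 4, 15 of 17 were higher, with a median of 0.29, where 6724 of 12837 tested genes were higher. In pairs 1 to 3 the medians were −0.27, −0.57 and −0.43. Over numbers 1 to 3 without the block 0 of 17 passed, where 6.29% of all genes fell. With the block over numbers 1 to 3, 9 of 17 fell, where 11.9% of all genes did.

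Among relatives of the 9 genes none passed over all 8 libraries. Of the other CCN genes, Ccn3 and Ccn6 were too low to test, and Ccn5 (−0.68, SE 0.59) and Ccn4 (−0.23, SE 0.81) did not pass. Ccn5 stood at 74.0, 143, 113 and 73.1 CPM across the controls, against 92.4, 65.7, 83.0 and 9.83 CPM across the knockout-labelled libraries, so in pairs 1 and 4 it lay on the opposite side of its control from Ccn1 and Ccn2. Of 8 tested paralogs, 6 were negative, the median was −0.11 and 0 passed. With the block over numbers 1 to 3, 1 of 8 fell, where 11.9% of all genes did, and 0 of 8 passed there without the block. It was Amotl1, the paralog of Amotl2 (−0.46, SE 0.07, edgeR adjusted p = 0.00068). Its ratios were 0.712, 0.676, 0.796 and 0.987 in pairs 1 to 4. Thbs2 had −0.49 (SE 0.47), Thbs3 0.44 (SE 0.46) and Ankrd23 −0.20 (SE 0.25). The difference between these genes and the 9 was not tested.

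**Figure D4:**
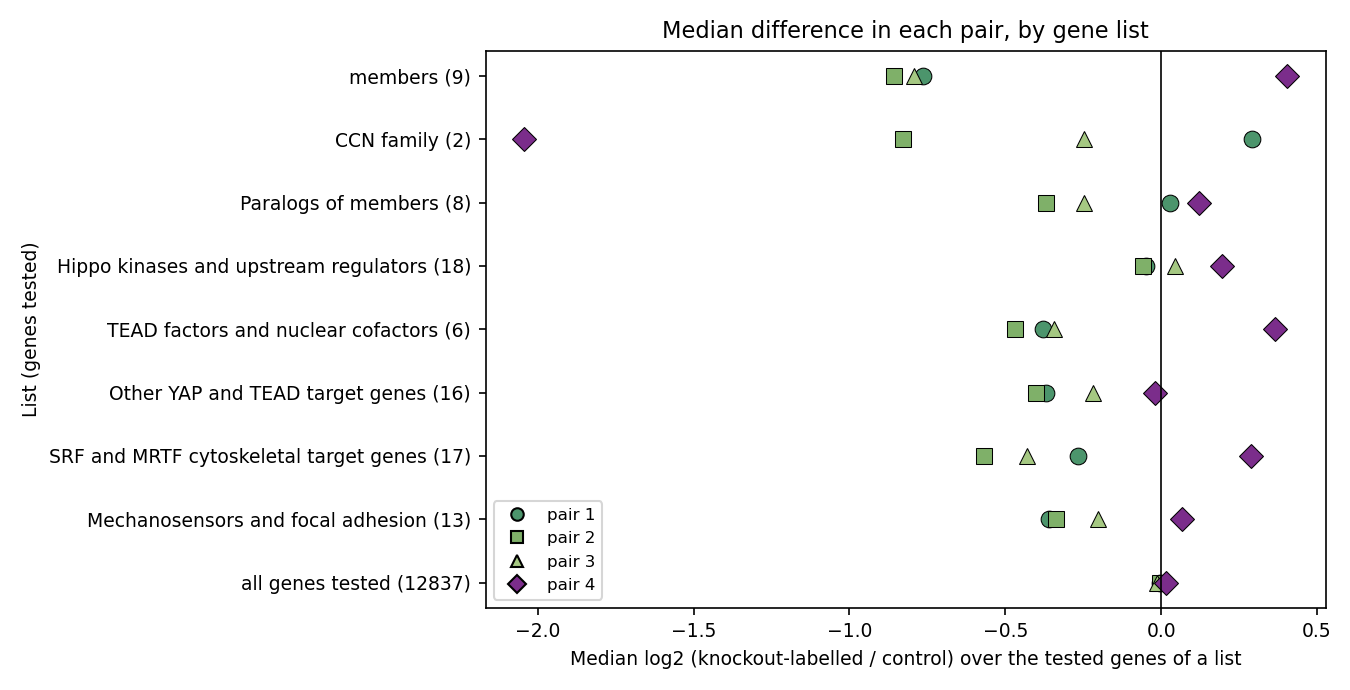
Median log2 ratio of the knockout-labelled library to the control of the same number over the tested genes of each list (number in brackets), for pairs 1 to 4, where members are the 9 genes and CCN family the other tested CCN genes. The medians of the 9 genes are −0.76, −0.86 and −0.79 in pairs 1 to 3 and 0.41 in pair 4, while those of all tested genes stay near 0.

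Among 11525 genes whose mean log2 CPM was 1 or more, likeness of pattern was measured as the root mean square difference of centred log2 CPM over the 8 libraries. The 5 genes nearest to Ccn1 were Angptl2 (0.08), the proteoglycan gene Bgn (0.10), the IGF1 receptor gene Igf1r (0.11), the glypican gene Gpc4 (0.12) and the ephrin receptor gene Ephb4 (0.13). For Ccn2 they were the BMP antagonist gene Nbl1 (0.14), the serotonin receptor gene Htr1b (0.14), Ccn1 (0.21), Igf1r (0.24) and the small heat shock protein gene Hspb1 (0.24). Of the 9 genes, Ajuba was the nearest to Ccn1, at 0.18 and rank 18, and Thbs1 and Ankrd1 were far from it, at 0.66 and 0.79 and ranks 2187 and 3904. Much of any such likeness over these libraries is the step between number 4 and the rest, which the points share.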

How the data were processed

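The authors deposited a table of whole-number read counts per gene symbol for 8 libraries, and the values are used here as deposited. The aligner STAR 2.7.11b, the counter featureCounts 2 and the build GRCm38 (mm10) are those in the submitters' processing notes; the annotation, strand setting and handling of multiply aligned reads are not given in the sources used here. Without strand, reads of antisense models over Ccn2, Thbs1, Lats2, Yap1 and Wwtr1 cannot be told apart from those genes. Gm15270 over Ccn2 had at most 4 counts, and Gm29233 over Thbs1, Gm20416 over Yap1 and Gm49361 over Lats2 are not among the deposited symbols. Group and number come from the sample titles, and columns were matched by the library name in the descriptions.

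Counts were filtered with filterByExpr, scaled with TMM and tested with edgeR 4.0.16 (R 4.3.3) by the robust quasi-likelihood F test on genotype alone, with Benjamini-Hochberg adjustment over 12837 genes and a threshold of 0.05. SEs are the size of the log2 fold change over the root of F. CPM used the TMM-scaled sizes, and log2 CPM a prior count of 2. DESeq2 1.42.0 was an alternative. The code was tested on simulated counts. Within a group, every pair of libraries differed beyond sampling noise (chi-square over degrees of freedom 8.56 to 307). Each counted as its own sample, but such a difference does not show that libraries came from separate animals or cultures.

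Same-numbered libraries deviated together across genes (r of 0.46 to 0.829, and 0.161 to 0.376 within numbers 1 to 3), each over 0.1. The pairing by number is read from these correlations alone, since no label states it. Unlike numbers among 1 to 3 had r of 0.416 to 0.572 over the 8 libraries, and −0.255 to −0.0234 within numbers 1 to 3. Values were centred on the mean of each group, which by itself pushes r between unlike numbers down. Over the 8 libraries control 1 had r of 0.46 with knockout-labelled 1 and 0.489 with knockout-labelled 2. Control 2 had 0.511 with knockout-labelled 1, so pair 1 is not set apart there. The 9 genes and all lists were chosen with earlier results of these data known. Named genes are the 9, up to 3 of each list with the smallest unadjusted p, and the 5 nearest in pattern to Ccn1 and Ccn2. Lats1, Amotl1, Src, Bcar1, Trpv4, Crim1, Nt5e and the marker genes were named after their values were seen. Coordinates and exon lengths are from GENCODE M21 on GRCm38, and promoters from RefSeq.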

Additional observations from a re-analysis of the deposited data

Results flagged for a closer look

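With 37 genes checked in both groups, 2 of 74 groups of 4 libraries held a value far from the other 3, and neither was one of the 9 genes. Chance gives 1 in 20 for independent groups, but these genes share the step at number 4, so nothing is read from the count. The check used CPM, not log2 CPM. It did not flag control 4 for the 7 targets, where it stood at 0.0689 to 0.456 of the mean of controls 1 to 3. Stk4 stood at 135 CPM in knockout-labelled 4 against 173 to 178 CPM in the other libraries of its group. Dock5 stood at 166 CPM in control 4 against 115 to 119 CPM in the other controls.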

How the results depend on the processing

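The log2 fold changes of Ccn1, Ccn2, Ankrd1, Thbs1, Amotl2, Ajuba and Lats2 stayed negative under all 18 alternatives, though that of Thbs1 was −0.0038 without control 2. Yap1 turned positive without control 2 (0.099), without knockout-labelled 4 (0.017) and with the replicate block without number 2 (0.021), and Wwtr1 without control 2 (0.098) and without knockout-labelled 4 (0.041). Leaving out 1 library, Ccn1 ran from −1.06 to −0.41, Ccn2 from −1.32 to −0.65, Ankrd1 from −1.33 to −0.51, Amotl2 from −1.16 to −0.42, Ajuba from −1.002 to −0.35, Lats2 from −0.98 to −0.50, Thbs1 from −0.52 to −0.0038, Yap1 from −0.53 to 0.099 and Wwtr1 from −0.59 to 0.098. Of 28 other named genes 25 kept their sign, and without control 2 Ccn4 (0.29), Thbs2 (0.014) and Vgll3 (0.0080) turned positive, as did Ccn4 without knockout-labelled 4 (0.15), and the lowest values without 1 library were −0.57 for Ccn4, −0.73 for Thbs2 and −0.77 for Vgll3.

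Against 0 higher and 0 lower genes over all genes, the replicate block gave 168 and 151, DESeq2 127 and 49, numbers 1 to 3 alone 1005 and 812, and numbers 1 to 3 with the replicate block 1593 and 1539. Leaving out 1 library gave 0 to 25 and 0 to 13, with 25 and 13 without control 4 and 17 and 7 without knockout-labelled 4, and leaving out 1 number with the block gave 0 to 1593 and 0 to 1539. For other pathway genes, where 0 were higher and 0 lower, the replicate block gave 0 and 3, numbers 1 to 3 alone 2 and 5, and numbers 1 to 3 with the block 6 and 31, while leaving out 1 number with the block gave 0 to 6 and 0 to 31. Scaling by RLE factors and dropping the filter on low counts changed none of these counts. The cause was not tested. Ankrd1, Ajuba and Wwtr1 rest on 98 to 177 counts in each library numbered 4, which limits their ratios there.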
